A study of Homo sapiens with 6 samples.

Results

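The genes described here encode the enzymes of glycolysis, the carriers that bring glucose into the cell and take lactate out of it, the proteins that sense oxygen, and a set of genes that hypoxia is known to induce. They were listed by name from pathway knowledge, with 36 genes in 5 roles. The list was chosen with earlier results of these data known, so the shares given for it are a description and not a test. Of these, 35 were among the 17211 genes of the normalized count table; BNIP3 was not analysed here. The roles were transport (3 genes), glycolytic enzymes (17 genes), regulators of glycolytic flux (3 genes), oxygen sensing (4 genes) and hypoxia targets (8 measured genes).

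CAOV2 is labelled a human ovarian cancer cell line, although the sample titles call the cells primary. YAP, the product of YAP1, switches on genes together with TEAD factors and is restrained by the Hippo pathway. The siYAP cells received a Dharmacon siRNA reagent against YAP, and the siNT cells received the AllStars non-targeting siRNA. In both groups 100000 cells were seeded per well, 100 pmol of siRNA was given with 6 µL of lipid reagent for 2 days, and RNA was taken on day 3. Each group had 3 libraries, labelled biological replicates of 1 line. The labels do not say whether these came from separate cultures, so the spread behind each p-value is that between libraries and may be technical. The suppliers of the siRNAs differ between the groups, so loss of YAP and any other effect of the reagents cannot be told apart. All cells grew with serum in a humidified incubator with CO2, and the labels describe no hypoxic culture.

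YAP1 had 278, 327 and 294 normalized counts in the siYAP libraries, against 6221, 5801 and 5955 in the siNT libraries. The siYAP mean was 5.00% of the siNT mean (log2 fold change -4.32, SE 0.0593, adjusted p = 1.00e-22, limma). The libraries held between 25478595 and 31790340 reads over the listed genes. The keratin genes KRT7, KRT8 and KRT18 and EPCAM were plainly detected. EPCAM was called higher (log2 fold change 0.74), KRT7 and KRT18 were called lower (-0.97 and -0.68), and KRT8 was not called. The ovarian carcinoma markers PAX8, MUC16 and MSLN reached at most 44.9 normalized counts in any library, and WT1 and SOX17 were not analysed here. The summed level of these 7 measured markers was 60483 to 65658 in siYAP libraries and 81981 to 88859 in siNT libraries. The summed level of 6 measured fibroblast markers was 14299 to 14804 in siYAP libraries and 5609 to 6399 in siNT libraries, most of it LUM and COL3A1; 4 of the 6 were called higher and the collagen I genes COL1A1 and COL1A2 were called lower (log2 fold changes -0.21 and -2.60). The summed level of 4 proliferation genes was 23344 to 24830 in siYAP libraries and 29547 to 30504 in siNT libraries. Of the endothelial list only ESAM was measured, and 3 measured immune markers summed to 107 to 128 in siYAP libraries and 137 to 162 in siNT libraries. The part of these shifts in the results was not tested.

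Glycolysis splits glucose into pyruvate in the cytosol, and lactate dehydrogenase then turns pyruvate into lactate, which leaves the cell through monocarboxylate transporters. When oxygen is scarce the prolyl hydroxylases of the EGLN family no longer mark HIF-alpha proteins for destruction, and HIF then binds a short core sequence near its targets, among them many glycolytic genes. HIF-alpha is controlled mainly at the level of the protein, which these RNA libraries do not measure. Many carcinoma lines keep glycolysis high in normal oxygen too.

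Of the 35 measured genes, 19 fell after YAP silencing, 8 rose and 8 were not called. Across all 17200 tested genes 28.1% were called lower and 28.6% were called higher at an adjusted p under 0.05 (limma on log2 of normalized count + 1, Benjamini-Hochberg over all tested genes). Among the glycolysis and hypoxia genes 54.3% were lower and 22.9% were higher. The median log2 fold change was -0.18 over the 35 genes and 0.0036 over all tested genes. The siYAP and siNT libraries did not overlap for 29 of the 35 genes, against 61.5% of all tested genes. The scaling of the libraries bears on these counts. With every library scaled to the same total, 62.0% of all called genes were higher, against 50.4% with the deposited scaling, the median of all genes moved to 0.0897, and 10 of the 35 genes were higher and 17 lower.

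**Figure D1:**
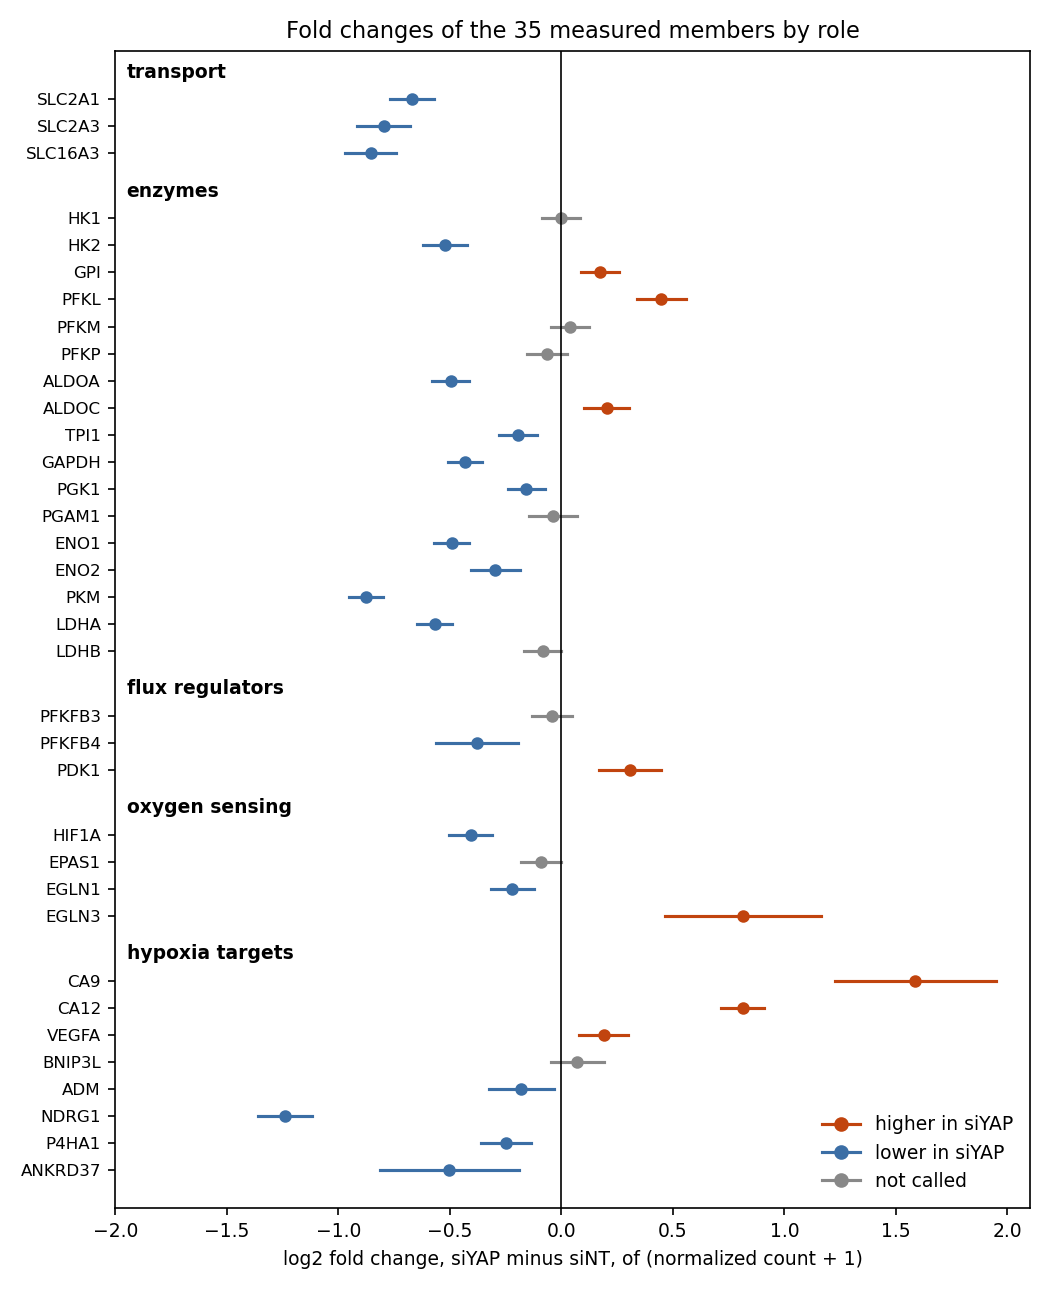
Log2 fold change of siYAP over siNT for each of the 35 measured genes, grouped by role, with its 95% confidence interval from limma (3 libraries per group); orange marks genes called higher in siYAP, blue genes called lower and grey genes not called. All 3 transport genes lie left of 0, the enzymes run from -0.88 (PKM) to 0.45 (PFKL), and the hypoxia targets run from -1.24 (NDRG1) to 1.59 (CA9).

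All 3 transport genes fell, by 0.67 to 0.86 on the log2 scale, and no siYAP library reached the siNT range for any of them. SLC2A1 encodes GLUT1, the main glucose carrier of most dividing cells. It had 3259, 3084 and 3019 normalized counts in siYAP libraries, against 4763, 4950 and 5201 in siNT libraries. Its log2 fold change was -0.67 (SE 0.0474, adjusted p = 6.31e-11). SLC2A3 encodes GLUT3, a glucose carrier of high affinity. It had 623, 635 and 619 normalized counts in siYAP libraries, against 1107, 1069 and 1086 in siNT libraries (log2 fold change -0.80, SE 0.0571, adjusted p = 8.12e-11). SLC16A3 encodes MCT4, which exports lactate. It had 2046, 1913 and 1743 normalized counts in siYAP libraries, against 3272, 3554 and 3477 in siNT libraries (log2 fold change -0.86, SE 0.0554, adjusted p = 1.48e-11). The siYAP mean was 62.8% of the siNT mean for SLC2A1, 57.5% for SLC2A3 and 55.3% for SLC16A3. Exons of SLC16A3 overlap those of CSNK1D on the other strand, and exons of SLC2A1 overlap SLC2A1-DT. The library kit keeps the strand, but the strand setting of the counting is not given in the sources used here.

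Among the 17 enzymes 9 fell, 3 rose and 5 were not called, with a median log2 fold change of -0.16. These shares are 52.9% lower and 17.6% higher, against 28.1% and 28.6% of all tested genes. With equal library totals 8 fell, 4 rose and the median was -0.0695. The fall was uneven along the pathway. It was deepest at pyruvate kinase, the last step before pyruvate. PKM, which encodes its M1 and M2 forms, had 86779, 83156 and 83242 normalized counts in siYAP libraries, against 149850, 156841 and 158087 in siNT libraries. These groups lay far apart (log2 fold change -0.88, SE 0.0359, adjusted p = 8.2e-15). The counts are per gene, so the M1 and M2 transcripts were not separated.

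LDHA, the lactate dehydrogenase subunit that favours lactate formation, had 22734, 22586 and 23103 normalized counts in siYAP libraries, against 34998, 32840 and 33703 in siNT libraries. The siYAP mean was 67.4% of the siNT mean (log2 fold change -0.57, SE 0.0382, adjusted p = 2.65e-11). HK2, the hexokinase that many tumours induce, had 1907, 1844 and 1794 normalized counts in siYAP libraries, against 2608, 2620 and 2727 in siNT libraries. No siYAP library came near the lowest siNT library (log2 fold change -0.52, SE 0.0476, adjusted p = 4.26e-09). GAPDH, the dehydrogenase often used as a loading control, had 107307, 102802 and 102151 normalized counts in siYAP libraries, against 135000, 143667 and 142262 in siNT libraries. Its siYAP mean was 74.2% of the siNT mean (log2 fold change -0.43, SE 0.0365, adjusted p = 1.3e-09).

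Other enzymes of the lower, energy-yielding arm changed by different amounts. ENO1, the common enolase, fell by 0.49 and ENO2, the enolase first known from neurons, fell by 0.30 on the log2 scale. PGK1, which makes the first ATP of the pathway, fell by 0.16, although its call is lost when libraries are scaled to equal totals (adjusted p = 0.125). PGAM1, the mutase between them, had 1446 ± 55.0 normalized counts in siYAP libraries and 1485 ± 39.0 in siNT libraries (SD, n = 3 each), which overlap. LDHB, the lactate dehydrogenase subunit that favours pyruvate, averaged 28133 ± 414 normalized counts in siYAP libraries and 29845 ± 1386 in siNT libraries (SD, n = 3 each), and was not called (log2 fold change -0.08, adjusted p = 0.0783, limma).

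In the upper arm, 3 genes rose. PFKL, the liver type of phosphofructokinase, the committed step, averaged 3662 ± 167 normalized counts in siYAP libraries and 2686 ± 184 in siNT libraries (SD, n = 3 each; log2 fold change 0.45, SE 0.0526, adjusted p = 2e-07, limma). GPI, which isomerizes glucose 6-phosphate, rose by 0.17, and ALDOC, an aldolase best known from brain, rose by 0.20 on the log2 scale. ALDOA, the main aldolase of muscle and many tumours, fell by 0.50, and TPI1, which interconverts the triose phosphates, fell by 0.19 on the log2 scale. HK1, PFKM and PFKP were not called. The housekeeping hexokinase HK1 averaged 7910 ± 188 normalized counts in siYAP libraries and 7914 ± 158 in siNT libraries. PFKM and PFKP, the muscle and platelet phosphofructokinases, had log2 fold changes of 0.04 (95% interval -0.04 to 0.12) and -0.06 (95% interval -0.15 to 0.02).

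**Figure D2:**
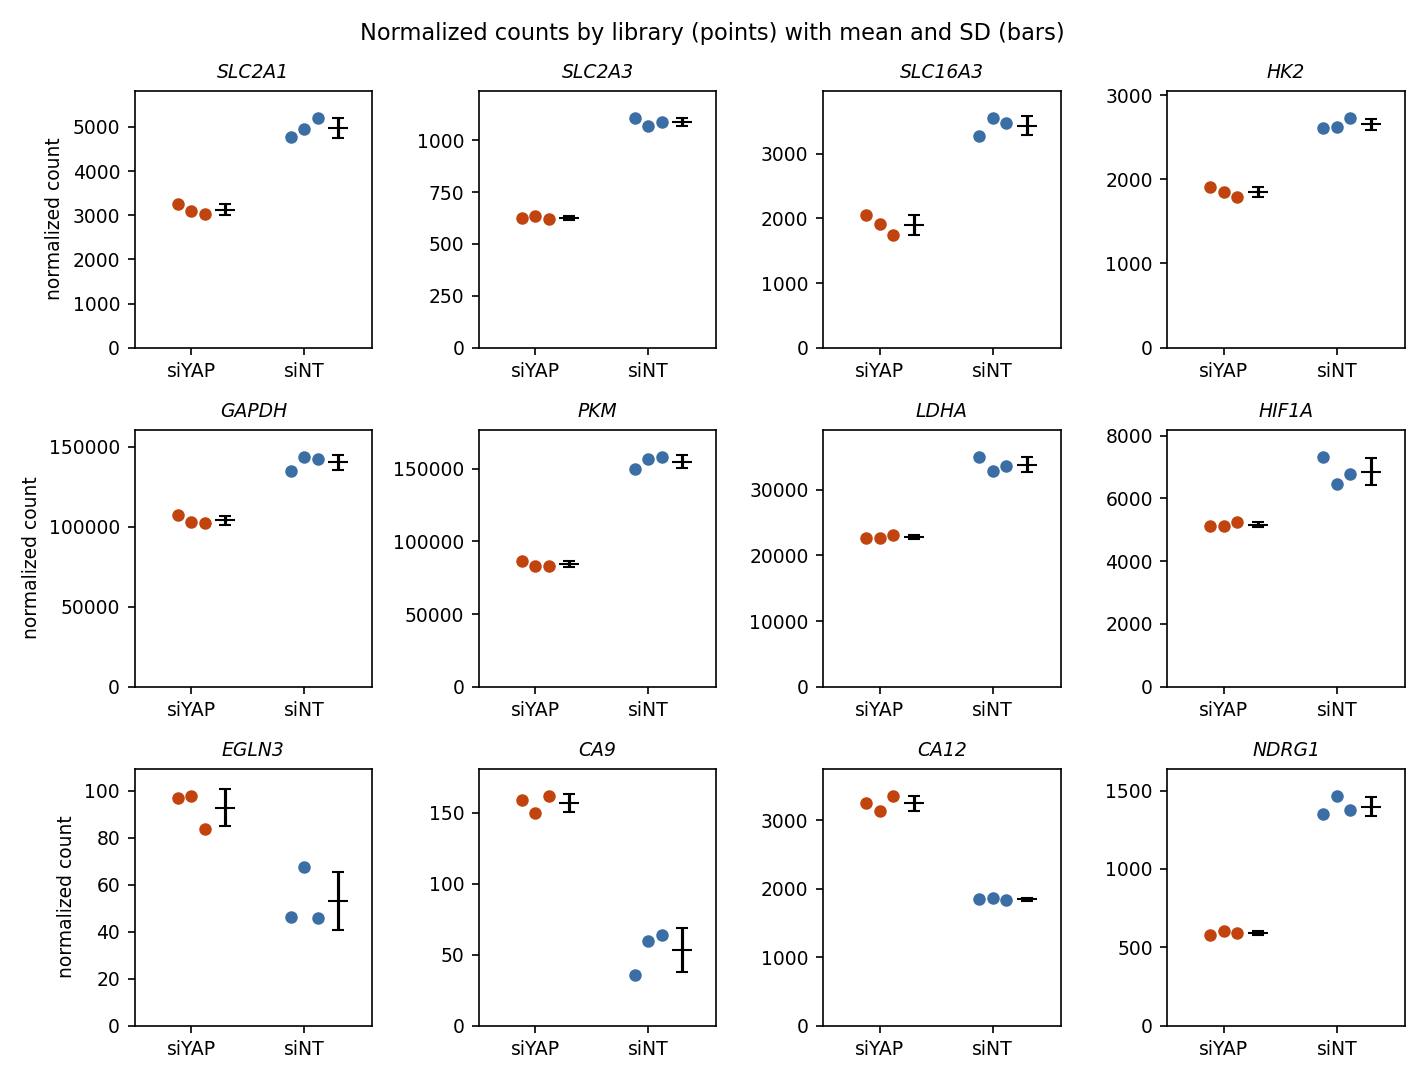
Normalized counts of 12 of the genes in each library, with siYAP (orange) on the left and siNT (blue) on the right of each panel, the mean and SD of 3 libraries beside the points, and every axis starting at 0. For each of these genes the siYAP points and the siNT points do not overlap. CA9, CA12 and EGLN3 are higher in siYAP and the other 9 are lower. The 12 genes were picked from the 35, of which 29 did not overlap, against 61.5% of all tested genes.

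A small number of enzymes carried most of the enzyme reads. The 17 enzymes took 1.49%, 1.45% and 1.44% of all reads in the siYAP libraries, against 1.84%, 1.91% and 1.90% in the siNT libraries. The means were 1.46 ± 0.0293% in siYAP libraries and 1.88 ± 0.0344% in siNT libraries (SD, n = 3 each), so that the groups were far apart on this measure, which uses no size factor. PKM alone took 0.294% of reads in siYAP libraries and 0.507% in siNT libraries, and GAPDH took 0.362% in siYAP libraries and 0.460% in siNT libraries. ENO1 took 0.179% in siYAP libraries and 0.237% in siNT libraries. The 3 transport genes together took 0.0197% in siYAP libraries and 0.0311% in siNT libraries. The summed share of the 8 hypoxia targets was 0.0301 ± 0.000143% in siYAP libraries and 0.0262 ± 0.000715% in siNT libraries (SD, n = 3 each). This higher sum rested on CA12, which averaged 3246 normalized counts in siYAP libraries and 1847 in siNT libraries. A share of reads amounts to scaling every library to the same total. That scaling moved the median log2 fold change of all tested genes from 0.0036 to 0.0897, so it adds to the rise of this sum. Of the 8 targets, 3 were called higher and 4 lower. In these bulk libraries fewer cells of a kind and less RNA per cell cannot be told apart.

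**Figure D3:**
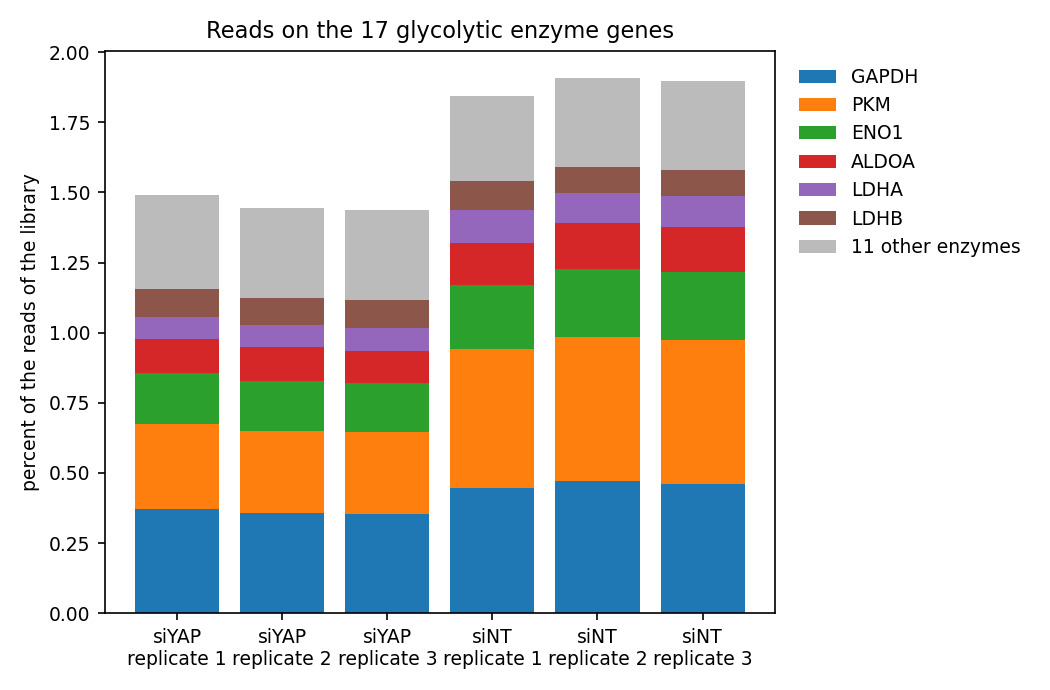
Share of all reads of each library that fell on the 17 enzyme genes, in percent, stacked by gene for the 6 with most reads and with the other 11 in grey; siYAP libraries stand left of siNT libraries. The siYAP bars reach 1.44 to 1.49% and the siNT bars 1.84 to 1.91%, and the orange PKM segment shows the widest gap between the groups.

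Per kilobase of exon GAPDH stood first, with 34917 normalized counts per kb in siYAP libraries and 47068 in siNT libraries. In siNT libraries PKM came next with 18076, then ENO1 with 13720, ALDOA with 12377 and LDHB with 10005 normalized counts per kb. In siYAP libraries PKM (9846), ENO1 (9753) and LDHB (9431) were close to each other and ALDOA followed with 8771 normalized counts per kb. With the longest principal transcript as the length, the siYAP values lay further apart, at 31061 for PKM, 21943 for ENO1, 21427 for ALDOA and 18292 for LDHB. HK1 exceeded HK2, PFKP exceeded PFKM and PFKM exceeded PFKL per kb in both groups, and these orders were the same when the longest principal transcript gave the length. The size of these gaps depended on the length used. ALDOA per kb was 8.39 times ALDOC in siYAP libraries and 13.6 times in siNT libraries by exon length, and 13.9 times in siYAP libraries and 22.6 times in siNT libraries by transcript length. HK1 per kb was 4.12 times HK2 in siYAP libraries and 2.87 times in siNT libraries by exon length, and 6.85 times in siYAP libraries and 4.78 times in siNT libraries by transcript length. At the low end EGLN3 had 12.6 normalized counts per kb in siYAP libraries and 7.22 in siNT libraries.

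Many glycolytic steps are served by paralogs that differ in tissue and kinetics, and the ratio of a pair within a library does not depend on the size factor. For each of 10 pairs the 3 siYAP ratios lay wholly outside the 3 siNT ratios. The groups also did not overlap for 61.5% of all tested genes taken singly, and the share over other gene pairs was not computed. The smallest p of an exact two-sided permutation test at 3 libraries per group is 0.1, which every pair reached (0.1 after Benjamini-Hochberg adjustment over the 10 pairs). The lactate dehydrogenase pair changed order in read counts. LDHB over LDHA was 1.25, 1.22 and 1.23 in siYAP libraries, against 0.898, 0.884 and 0.863 in siNT libraries. Per kb of exon LDHB exceeded LDHA in both groups, by 2.57 times in siYAP libraries and 1.84 times in siNT libraries. HK2 over HK1 was 0.237, 0.240 and 0.224 in siYAP libraries, against 0.337, 0.328 and 0.340 in siNT libraries. Thus HK2 counts fell relative to HK1, by 0.52 on the log2 scale. ALDOC over ALDOA averaged 0.0891 ± 0.000168 in siYAP libraries and 0.0548 ± 0.0013 in siNT libraries (SD, n = 3 each). PFKP over PFKL averaged 3.96 ± 0.0603 in siYAP libraries and 5.66 ± 0.238 in siNT libraries (SD, n = 3 each). PFKM over PFKL averaged 1.96 ± 0.0941 in siYAP libraries and 2.60 ± 0.148 in siNT libraries (SD, n = 3 each). ENO2 over ENO1 and SLC2A3 over SLC2A1 moved least, with log2 differences of 0.19 and -0.12.

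**Figure D4:**
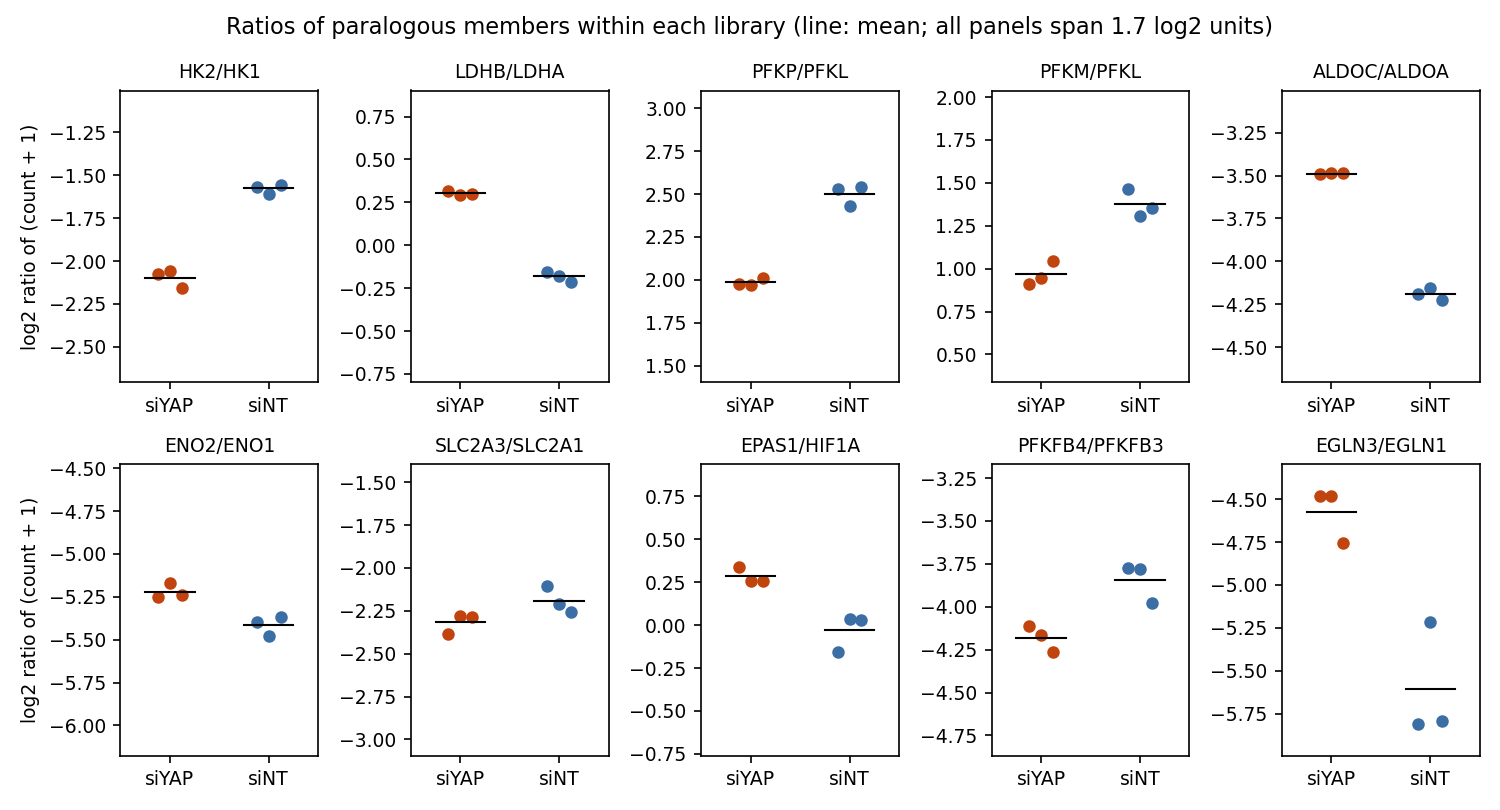
Log2 ratio of the normalized counts (each + 1) of 10 pairs of paralogs in each library, with siYAP (orange) left of siNT (blue) and the group mean as a line; the panels have different positions but all span 1.7 log2 units. LDHB/LDHA lies above 0 in the siYAP libraries and below 0 in the siNT libraries, and EGLN3/EGLN1 shows the widest gap and the widest spread.

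The 3 regulators of flux went separate ways. PFKFB3 and PFKFB4 encode enzymes that make fructose 2,6-bisphosphate, the strongest activator of phosphofructokinase. PFKFB3 had 4536, 4393 and 4471 normalized counts in siYAP libraries, against 4453, 4625 and 4710 in siNT libraries. These values overlap, and its 95% interval for the log2 fold change ran from -0.13 to 0.05. PFKFB4 fell, with 246 ± 14.5 normalized counts in siYAP libraries and 320 ± 19.1 in siNT libraries (SD, n = 3 each; log2 fold change -0.38, adjusted p = 0.000835, limma). PDK1, a kinase that shuts pyruvate dehydrogenase and so keeps pyruvate out of mitochondria, rose, with 862 ± 47.8 normalized counts in siYAP libraries and 698 ± 50.03 in siNT libraries (SD, n = 3 each; log2 fold change 0.31, adjusted p = 0.000438, limma). Exons of PFKFB4 overlap UCN2 on the same strand, so that their reads may not be fully separated.

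In the oxygen-sensing group HIF1A and EGLN1 fell, EGLN3 rose, and EPAS1 was not called. HIF1A encodes the alpha subunit HIF-1α. It had 5114, 5122 and 5256 normalized counts in siYAP libraries, against 7322, 6465 and 6783 in siNT libraries. All siYAP libraries were below all siNT libraries (log2 fold change -0.41, SE 0.0468, adjusted p = 1.47e-07). EPAS1, which encodes the related HIF-2α, averaged 6294 ± 164 normalized counts in siYAP libraries and 6704 ± 198 in siNT libraries (SD, n = 3 each; log2 fold change -0.09, adjusted p = 0.0748, limma), and it passed the test when siNT replicate 1 was left out (adjusted p = 0.0278). EPAS1 over HIF1A in read counts was 1.22 ± 0.0385 in siYAP libraries and 0.981 ± 0.0737 in siNT libraries (SD, n = 3 each). Per kb of exon HIF1A exceeded EPAS1 in both groups, by 1.16 times in siYAP libraries and 1.45 times in siNT libraries. Exons of HIF1A overlap HIF1A-AS1 on the other strand. EGLN1 encodes PHD2, the main HIF prolyl hydroxylase in normal oxygen, and fell by 0.22 on the log2 scale. EGLN3 encodes PHD3, a hydroxylase that is itself a HIF target. It had 97.0, 97.7 and 83.7 normalized counts in siYAP libraries, against 46.1, 67.3 and 45.9 in siNT libraries. The groups did not overlap, but siNT replicate 2 stood above the other siNT libraries (log2 fold change 0.81, SE 0.168, adjusted p = 0.000266). EGLN3 over EGLN1 was 0.0418 ± 0.00442 in siYAP libraries and 0.0205 ± 0.00518 in siNT libraries (SD, n = 3 each).

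The hypoxia targets did not move as a block. Of 8 measured, 3 rose, 4 fell and BNIP3L was not called, and their median log2 fold change was -0.05. With equal library totals 4 were higher and 3 lower, BNIP3L was called higher (adjusted p = 0.0239) and the median turned to 0.0331. The carbonic anhydrases rose together. CA9 encodes a membrane enzyme that hydrates CO2 outside the cell and is a widely used hypoxia marker. It had 159, 150 and 162 normalized counts in siYAP libraries, against 35.6, 59.9 and 64.0 in siNT libraries. The siYAP mean was 295% of the siNT mean (log2 fold change 1.59, SE 0.174, adjusted p = 6.89e-08), at a low level in both groups. CA12, a second membrane carbonic anhydrase, had 3250, 3137 and 3353 normalized counts in siYAP libraries, against 1843, 1871 and 1828 in siNT libraries. It was thus higher in every siYAP library (log2 fold change 0.81, SE 0.0466, adjusted p = 1.94e-12). VEGFA, the angiogenic growth factor, rose by 0.19 on the log2 scale (adjusted p = 0.00398).

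NDRG1, a stress-responsive gene induced by hypoxia and by iron loss, had the deepest fall of all 35 genes. It had 578, 605 and 591 normalized counts in siYAP libraries, against 1351, 1465 and 1379 in siNT libraries. The siYAP mean was 42.3% of the siNT mean (log2 fold change -1.24, SE 0.0577, adjusted p = 5.95e-14). P4HA1, a collagen prolyl hydroxylase subunit, fell by 0.25 on the log2 scale. ANKRD37, a small ankyrin protein and HIF target, had 94.2, 79.0 and 63.7 normalized counts in siYAP libraries, against 102, 121 and 111 in siNT libraries (log2 fold change -0.50, SE 0.150, adjusted p = 0.00659). The low siYAP replicate 3 decides this call, since the adjusted p was 0.0533 without it. ADM, the vasodilator peptide adrenomedullin, was called lower by a narrow margin (log2 fold change -0.18, adjusted p = 0.0336), and lost the call without siYAP replicate 3 (adjusted p = 0.179) and without siNT replicate 2 (adjusted p = 0.140). BNIP3L, a mitophagy receptor, averaged 1304 ± 8.74 normalized counts in siYAP libraries and 1243 ± 87.7 in siNT libraries (SD, n = 3 each; adjusted p = 0.296, limma). Exons of CA9 overlap ARHGEF39 and those of ANKRD37 overlap UFSP2, each on the other strand.

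Set side by side, 9 of 17 enzymes and 4 of 8 hypoxia targets were lower, while 3 of 17 enzymes and 3 of 8 hypoxia targets were higher. Over all tested genes 28.1% were lower and 28.6% higher. The enzyme median (-0.16) was below the hypoxia target median (-0.05), a difference of -0.10 on the log2 scale. This difference was -0.0379 without siNT replicate 3 and -0.151 without siNT replicate 2, and it was not tested.

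HIF binds the core ACGTG or GCGTG, and TEAD factors bind the core CATTCC. Both were searched on both strands of the RefSeq promoter windows (GRCh38.p14) that run from 250 bases before a gene's start to 50 bases after it. Windows were found for 31 of the 35 genes. The 4 promoters printed here include those of the strongest riser, of the enzyme that rose most and of the enzyme that fell most. The last is that of the one called gene with a TEAD core among the 31 counted. Capitals mark the HIF cores in all 4 and, in ENO1, also the TEAD core, read on either strand.
CA9 (chr9:35673678-35673977, plus strand): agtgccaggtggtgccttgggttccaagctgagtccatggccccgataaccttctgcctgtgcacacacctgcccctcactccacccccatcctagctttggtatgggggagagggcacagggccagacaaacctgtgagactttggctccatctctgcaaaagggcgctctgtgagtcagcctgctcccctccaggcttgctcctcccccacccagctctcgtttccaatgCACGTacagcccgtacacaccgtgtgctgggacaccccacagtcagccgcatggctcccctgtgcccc
PFKL (chr21:44299803-44300102, plus strand): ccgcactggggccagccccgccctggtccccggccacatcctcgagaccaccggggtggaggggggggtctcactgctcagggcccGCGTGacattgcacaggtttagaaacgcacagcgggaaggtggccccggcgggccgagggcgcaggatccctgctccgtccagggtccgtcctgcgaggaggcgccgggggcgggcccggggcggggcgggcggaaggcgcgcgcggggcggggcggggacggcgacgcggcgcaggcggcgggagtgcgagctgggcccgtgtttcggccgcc
PKM (chr15:72231141-72231440, minus strand): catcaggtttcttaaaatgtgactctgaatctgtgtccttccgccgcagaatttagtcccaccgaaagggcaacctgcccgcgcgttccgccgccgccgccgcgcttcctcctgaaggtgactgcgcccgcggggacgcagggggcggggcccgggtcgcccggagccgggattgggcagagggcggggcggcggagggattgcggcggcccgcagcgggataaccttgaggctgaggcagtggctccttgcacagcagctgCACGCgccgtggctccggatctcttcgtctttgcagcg
ENO1 (chr1:8878637-8878936, minus strand): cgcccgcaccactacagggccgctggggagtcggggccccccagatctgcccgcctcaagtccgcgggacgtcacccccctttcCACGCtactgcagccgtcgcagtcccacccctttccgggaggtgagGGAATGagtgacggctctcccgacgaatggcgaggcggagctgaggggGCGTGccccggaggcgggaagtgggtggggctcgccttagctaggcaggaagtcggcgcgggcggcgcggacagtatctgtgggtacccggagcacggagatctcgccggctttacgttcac
Thus the risers CA9 and PFKL and the fallers PKM and ENO1 all hold a HIF core. In ENO1 the TEAD core appears as GGAATG, its reverse complement.

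A HIF core was present in 39 of the 58 windows of these genes (67.2%), against 48.4% of all 35116 windows in the table. The 35116 windows were not limited by chromosome. Some windows of the same gene overlap, so a stretch can count more than once. The share of all genes with a HIF core is not given here. Among the 31 genes counted, a HIF core was found in 6 of 7 called higher, 17 of 17 called lower and 6 of 7 not called. It thus did not separate the directions. NDRG1, the gene with the deepest fall, was not among them. A TEAD core was present in 10.3% of the windows of these genes and 14.0% of all windows. It was found in 0 of 7 genes called higher, 1 of 17 called lower and 4 of 7 not called. These genes had unequal numbers of windows to search, 8 for those called higher, 27 for those called lower and 23 for those not called. A match in these letters is not a bound site, and distal sites were not searched.

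The siRNA sequences are not given in the labels. An earlier search of the same fold changes found 3 heptamers whose presence in a 3′ UTR went with lower fold changes, so counts by them are a description only. The first of them is TTCTTAA, the next one is GAGAGGA, and the last one is GATAAAG. At least 1 of them was present in the 3′ UTR of 12 of the 35 genes (34.3%), against 35.8% of all 13294 genes searched. Of these 12 genes, 7 were lower, 2 higher and 3 not called (median -0.20). Of the 23 genes without one, 12 were lower, 6 higher and 5 not called (median -0.16). Only HK2 among the 17 enzymes held any of them, with GAGAGGA at tttgcttggcaGAGAGGAccccactggact and GATAAAG at 2 other places. All 4 oxygen-sensing genes held TTCTTAA, which HIF1A carries at 3 places, shown with the heptamer in capitals.
HIF1A, first: gctttTTCTTAAtttcattccttt
HIF1A, second: cacaatatattTTCTTAAaaaataccagca
HIF1A, last: tataataatgaTTCTTAAatgctgtatggt
These 4 genes did not move one way, since EGLN3 rose and EPAS1 was not called. The part of the heptamers in the fall of HIF1A and HK2 was not tested.

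Glycolytic genes have many processed pseudogenes that can draw or lend reads. The table listed 21 of them for 8 of the genes, and the largest relative to its parent, PGAM1P8, reached 2.07% of the normalized count of PGAM1 in siNT libraries. Of the 21 pseudogenes, 1 was called higher, 6 lower and 14 not called, against 28.6% higher and 28.1% lower among all tested genes. PGK1 also shares exonic sequence with ATP7A and C4orf46P2 on the same strand.

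Around the core pathway, 108 further genes in 7 lists were looked up, and 94 were measured. Of these, 37 were higher (39.4%), 26 lower (27.7%) and 31 not called, with a median of 0.07. Over all tested genes 28.6% were higher and 28.1% lower. Among 20 other glycolysis and sugar transport genes, 9 were higher and 6 lower. Among those averaging 20 or more normalized counts, the 3 largest changes were in carriers. SLC2A6 and SLC2A8, further hexose carriers of the GLUT family, rose by 0.78 and 0.72 on the log2 scale. SLC16A7, a monocarboxylate carrier with high affinity for pyruvate, rose by 0.72. These carriers rose while SLC2A1, SLC2A3 and SLC16A3 fell. Not all other carriers of the list rose, since SLC2A4, SLC2A12 and SLC16A1 were called lower (log2 fold changes -0.62, -0.59 and -0.19). SLC2A6 averaged 769 ± 19.9 normalized counts in siYAP libraries and 449 ± 15.8 in siNT libraries (SD, n = 3 each).

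Of 13 pyruvate entry genes, 4 were higher and 4 lower (30.8% each), near the shares of all tested genes (28.6% and 28.1%). The 3 largest changes were falls in activating or core parts of pyruvate dehydrogenase. PDP1, a phosphatase that switches the enzyme on, averaged 1316 ± 21.0 normalized counts in siYAP libraries and 3129 ± 145 in siNT libraries (SD, n = 3 each; log2 fold change -1.25, adjusted p = 4.38e-15, limma). Its relative PDP2 fell by 0.95, and DLAT, the acetyltransferase core subunit, fell by 0.48 on the log2 scale. PDK1, which works against these phosphatases, rose, as given above.

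Of 7 pentose phosphate genes, 3 rose (42.9%) and 2 fell (28.6%), against 28.6% higher and 28.1% lower among all tested genes. TKT, transketolase, fell by 0.40, while RPE, ribulose phosphate epimerase, and PGLS, the lactonase, rose by 0.35 and 0.30 on the log2 scale. In gluconeogenesis 2 of 5 measured genes rose and 1 fell. PCK1 and PCK2, the cytosolic and mitochondrial PEP carboxykinases, rose by 0.40 and 0.18, and the glucose 6-phosphate carrier SLC37A4 fell by 0.35 on the log2 scale. Glycogen genes were mostly called higher, with 6 of 10 higher and 1 lower. PPP1R3C, a glycogen-targeting phosphatase subunit, rose by 0.66, and PHKB, a phosphorylase kinase subunit, rose by 0.25 on the log2 scale.

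Of 9 further oxygen-sensing genes, 5 were higher (55.6%) and 2 lower (22.2%), against 28.6% and 28.1% of all tested genes. HIF3A, a HIF-alpha relative with isoforms that restrain HIF, and ARNT2, a partner of HIF-alpha, rose by 1.32 and 0.80 on the log2 scale from low levels. HIF3A averaged 79.0 ± 12.5 normalized counts in siYAP libraries and 31.6 ± 9.57 in siNT libraries (SD, n = 3 each). CITED2, which competes with HIF-alpha for the co-activators CBP and p300, fell by 0.38. Among 30 further hypoxia targets, 8 were higher (26.7%), 10 lower (33.3%) and 12 not called, with a median of -0.03; these shares are near those of all tested genes (28.6% and 28.1%). The 3 largest changes among those averaging 20 or more normalized counts were falls, in STC1, a secreted glycoprotein (-1.77), ZNF395, a zinc finger gene induced by hypoxia (-1.49), and PLOD2, a collagen lysyl hydroxylase (-1.40). STC1 averaged 156 ± 20.8 normalized counts in siYAP libraries and 533 ± 47.7 in siNT libraries (SD, n = 3 each; adjusted p = 1.37e-12, limma). PLOD2 averaged 538 ± 50.02 normalized counts in siYAP libraries and 1422 ± 118 in siNT libraries (SD, n = 3 each; adjusted p = 2.8e-13, limma).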

How the data were processed

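Human CAOV2 RNA libraries (3 siYAP, 3 siNT) were read from 1 deposited table of normalized counts, a deposited signal whose values are whole multiples of 1 step per library, as gene counts divided by a size factor would be; 100.0% of values came out as whole reads within 0.01 read, and those reads were used for the count tests. The tools named per the submitters' processing notes are HISAT2, HTSeq, DESeq2 and FastQC, with builds hg19 and mm9 and no role for either; versions, annotation and strand setting of the counting are not stated there. No sample column was left unused. The members and lists were chosen with earlier results of these data known.

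The main test was limma 3.58.1 (trend, robust) on log2(normalized count + 1), which understates changes of low genes, for the 17200 genes that reached 1 normalized count in 3 or more libraries. P-values were adjusted over all of them by Benjamini-Hochberg and called under 0.05. A fold change is siYAP minus siNT. The plan named edgeR for raw counts; since the table is normalized, edgeR 4.0.16 and DESeq2 1.42.0 were run on recovered reads as alternatives; edgeR called 4916 genes higher and 4655 lower, and DESeq2 called 4393 higher and 4385 lower. The fits were tested on simulated data. Names came from the NCBI gene table (16662 of 17211 identifiers matched), lengths, exon overlaps and 3′ UTRs from GENCODE 29, whose build (GRCh38) is not the one named by the submitters, and promoters from RefSeq. Values in every library are given for called members with an absolute log2 fold change of at least 0.5, for the highest member of each role in siNT, and for GAPDH. Other pathway genes were named by the size of the change (at most 3 called per list, mean of at least 20); 1 gene that this rule names is not reported here. Other scalings, pseudocounts, filters and fits, and leaving out each library, were tried; the length of the longest principal transcript was added as an alternative after seeing the data.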

Additional observations from a re-analysis of the deposited data

How the results depend on the processing

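The 35 genes were refitted under 16 other settings, which gave 560 fold changes; 535 kept direction and call, 9 lost the call, 4 gained it and 12, all of genes not called, changed sign. With equal library totals the median became -0.0931 over the 35 genes, -0.0695 over the enzymes and 0.0331 over the hypoxia targets, by the construction of that scaling, which adds to every fold change, and LDHB (0.0031), PFKFB3 (0.0465), PFKP (0.0227), PGAM1 (0.0486) and HK1 (0.0867) turned positive. HK1, which is at 0 in the main result, was 0.0011 with DESeq2, 0.0115 with edgeR, 0.0054 with TMM factors and 0.0181 with upper-quartile factors, and -0.0173 to 0.0192 when single libraries were left out; the cause was not tested. Leaving out 1 library at a time gave 17 to 21 lower and in each case 8 higher genes of the 35, 2 to 4 lower hypoxia targets (2 without siYAP replicate 3), and an enzyme minus target median difference of -0.151 to -0.0379. ADM lost its call under 7 settings (adjusted p from 0.0515 to 0.279).

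The numbers do not pair the libraries: deviations of same-numbered libraries correlated at -0.338, -0.00827 and -0.0685. With a replicate block 8 of the 35 genes were higher and 18 lower, and 4654 genes were higher and 4487 lower over the table. Depth limits EGLN3, CA9 and ANKRD37 most, which had under 200 normalized counts in every library. Proteins, metabolites and flux were not measured.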
